A study of Mus musculus with 23 samples.

Results

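Wide enhancer regions are autosomal H3K27ac enhancer regions that span at least 10 kb in the deposited list of a cortical subregion. There were 2083 of them among 84029 autosomal regions in the 4 lists, or 2.48% (2.38 to 2.59), and the lists held 86105 regions with the sex chromosomes. They were chosen by width alone, the end minus the start of each region, so their width is a description and supports nothing. The 81946 autosomal regions under 10 kb are called narrower regions and serve as the comparison.

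The tissue was cortex of C57BL6J mice at postnatal day 56, cut in 500 µm sections and dissected into anterior cingulate (ACC), retrosplenial (RSC), lateral entorhinal (LEC) and medial entorhinal (MEC) cortex. ACC and RSC are midline areas, and LEC and MEC are the divisions of the entorhinal cortex, which links the neocortex with the hippocampus. Chromatin immunoprecipitation and sequencing was done for H3K27ac and H3K4me2, with 2 libraries per subregion and mark except 1 for H3K4me2 in MEC, and 2 input libraries per subregion. All groups came from the same strain and age with no treatment or transgene in the labels, and the sources used here give neither the sex of the mice nor whether libraries were made from separate ones. The tissue holds all cell types of the cortex, so a region present in few cells cannot be told apart from one weakly marked in many.

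H3K27ac is acetylation of lysine 27 on histone H3, a mark of active enhancers and promoters. H3K4me2 is dimethylation of lysine 4, which is found at enhancers and promoters whether active or poised. Broad, nearly continuous stretches of H3K27ac are known as stretch enhancers, and clusters of enhancers with a very high load of the mark as super-enhancers. Both kinds are known to lie near genes that define a cell type. Calling a super-enhancer needs the signal within each region, which was not analysed here, so neither name is used for the regions described.

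Each subregion and mark had an enhancer list and a full list, and every enhancer region was also in the full list. Regions of the full list that are missing from the enhancer list are called excluded regions, since the rule by which they were removed was not given in the sources used here. Brackets hold Wilson 95% intervals, and these cover counting error only. No list has values per library, so replicate error could not be given, no difference below was tested, and how deeply each list was sequenced is unknown. Coordinates are 1-based in build mm9. No annotation or genome of that build was used here, so regions are located by coordinate and carry no gene name or sequence.

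ACC had the most wide regions and MEC the fewest, both in number and as a share of the list. The ACC list held 779 wide regions of 27194, or 2.86% (2.67 to 3.07). The RSC list held 591 of 23665 (2.50%, 2.31 to 2.70) and the LEC list 521 of 22461 (2.32%, 2.13 to 2.52). The MEC list held 192 of 10709, or 1.79% (1.56 to 2.06), and its interval did not overlap that of any other subregion. Few as they were, wide regions held 14.2% of the bases of the ACC enhancer list (11.3 Mb) and 12.9% of those of the RSC list (8.69 Mb). They held 11.2% of LEC bases (7.40 Mb) and 8.93% of MEC bases (2.63 Mb). The sex chromosomes carried another 12 wide ACC regions, 7 RSC, 8 LEC and 1 MEC regions, which are not counted among the members.

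Many wide regions were only a little wider than 10 kb, with 942 of the 2083 (45.2%) under 12.5 kb, and the lists had no break in width at 10 kb. The median width was 12925 bp for ACC, 12875 bp for RSC, 12750 bp for LEC and 12287.5 bp for MEC. A width of at least 15 kb was reached by 242 ACC, 191 RSC, 154 LEC and 40 MEC regions. At least 30 kb was reached by 17, 19, 9 and 3 in the same order, and at least 40 kb by 5 each in ACC and RSC, 1 in LEC and none in MEC. ACC and RSC thus had about equal numbers at the far end of the scale, although ACC had more wide regions in all.

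Just inside the limit, at exactly 10000 bp, were 4 regions each in ACC, RSC and MEC and 2 in LEC. Just outside it, at 9975 bp, were 7 regions in ACC, 4 in RSC and 3 each in LEC and MEC. Over the 4 lists, 248 regions were under 500 bp above the limit and 312 were up to 500 bp below it.

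**Figure D1:**
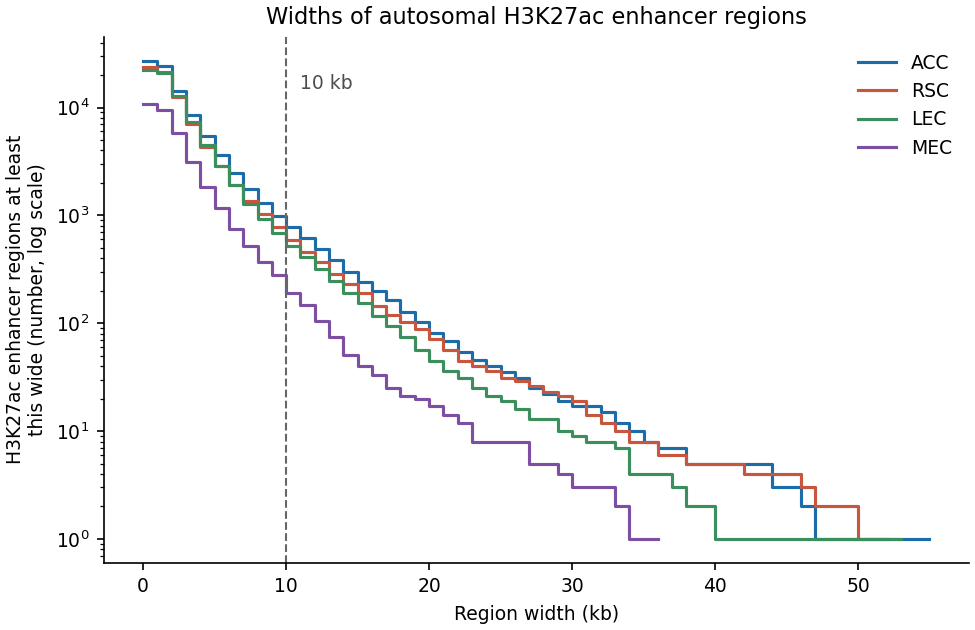
Number of autosomal H3K27ac enhancer regions (y axis, log scale) at least as wide as the value on the x axis (kb), 1 line per subregion, with a dashed line at 10 kb. The lines fall smoothly through 10 kb, where they stand at 779 for ACC, 591 for RSC, 521 for LEC and 192 for MEC. The widest regions, where the lines end, measure 55250 bp for ACC, 52350 bp for RSC, 53250 bp for LEC and 36850 bp for MEC.

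The enhancer lists kept a smaller share of wide than of narrower full-list regions, and the intervals overlapped in none of the 4 subregions, though they nearly met in MEC. Of the full-list H3K27ac regions of at least 10 kb, 27.9% (26.3 to 29.6) were enhancer regions in ACC, against 59.8% (59.4 to 60.3) of narrower ones. RSC kept 32.3% (30.2 to 34.5) of wide against 59.8% (59.3 to 60.3) of narrower regions, and LEC 28.8% (26.8 to 30.9) against 55.95% (55.5 to 56.4). MEC kept 42.9% (38.4 to 47.5) of wide against 48.3% (47.6 to 48.9) of narrower regions. The broadest H3K27ac domains of these tissues are therefore mostly outside the enhancer lists. The widest full-list region measured 148325 bp in ACC, 125900 bp in RSC, 73400 bp in LEC and 78100 bp in MEC.

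Wide regions were shared between subregions, and about 2 in 3 of them met another wide region elsewhere. A wide region of at least 1 other subregion overlapped 1383 of the 2083 (66.4%, 64.3 to 68.4). By subregion it was 462 wide regions in ACC (59.3%), where 4.09% of the whole list were overlapped in this way, and 415 in RSC (70.2%, against 5.6% of the list). It was 376 in LEC (72.2%, against 6.62%) and 130 in MEC (67.7%, against 12.7%). The shares of the whole lists include narrower regions, which have fewer bases in which an overlap can fall. Shares of bases are therefore given beside the counts below.

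A further 668 wide regions (32.1%, 30.1 to 34.1) met narrower enhancer regions elsewhere and no wide one. ACC had the largest share of these, 314 or 40.3% (36.9 to 43.8). RSC had 174 (29.4%, 25.9 to 33.2), LEC 136 (26.1%, 22.5 to 30.0) and MEC 44 (22.9%, 17.5 to 29.4). This order rested on the 10 kb limit. It was also looked at with the 250 widest regions of each list counted as wide and all others as narrower. The narrowest then counted as wide measured 14825 bp in ACC, 13575 bp in RSC, 12900 bp in LEC and 9325 bp in MEC. MEC now had the largest share that met narrower regions only, 47.2%, against 34.0% for ACC, 33.2% for RSC and 32.4% for LEC. A region among the 250 widest of another list met 43.2% of those of MEC, where by the 10 kb limit 67.7% met a wide region elsewhere. Since members were selected for a large width in their own list, a smaller width elsewhere is in part fixed by that choice.

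No H3K27ac enhancer region elsewhere overlapped 32 wide regions, or 1.54% (1.09 to 2.16) of them. They were 3 in ACC (0.385%, against 22.8% of the whole list), 2 in RSC (0.338%, against 20.3%) and 9 in LEC (1.73%, against 20.2%). MEC had 18 (9.38%, 6.01 to 14.3, against 19.8%), the largest number from the shortest list. These shares depended on counting an overlap of 1 bp as a match. When 50% of the wide region had to be overlapped, the share without a match rose to 17.2% for MEC. ACC then came next at 11.8%, ahead of LEC at 8.06% and RSC at 5.58%. Most of the 32 were not without H3K27ac elsewhere. An excluded region of another subregion overlapped 23 of them, and all 23 of those excluded regions were at least 10 kb wide, with a median of 40950 bp. Of the 17643 narrower regions with no enhancer region elsewhere, an excluded region overlapped 3354. The widest such partner was at least 10 kb wide at 1531 of them, with a median of 9125 bp. The other 9 of the 32 wide regions met no H3K27ac region in any list elsewhere. They were 2 in ACC, none of 591 in RSC, 3 in LEC and 4 in MEC.

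Enhancer regions of all 3 other subregions overlapped a majority of wide regions and a minority of narrower ones. It was 66.8% (63.4 to 70.0) of wide against 13.5% (13.1 to 13.9) of narrower regions in ACC and 74.5% (70.8 to 77.8) against 15.7% (15.3 to 16.2) in RSC. In LEC it was 66.8% (62.6 to 70.7) against 17.1% (16.6 to 17.6), and in MEC 59.4% (52.3 to 66.1) against 39.5% (38.5 to 40.4). Wide in all 3 others were 53 members each in ACC, RSC and LEC and 54 in MEC. As a share of the list's own regions this was largest for MEC, at 28.1% of wide against 2.17% of narrower ones. LEC followed with 10.2% against 0.114%, then RSC with 8.97% against 0.0130%, and ACC was last with 6.80% against 0.0606%.

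By pairs, ACC was the list in which wide regions of RSC and LEC most often met a wide partner. ACC had a wide region at 346 of the 591 RSC members (58.5%, 54.5 to 62.4) and at 307 of the 521 LEC members (58.9%, 54.7 to 63.1). RSC and LEC met each other less often, with 247 RSC members (41.8%) wide in LEC and 250 LEC members (48.0%) wide in RSC. Of the 779 ACC members, 349 (44.8%) were wide in RSC and 302 (38.8%) in LEC. The ACC list was also the longest, and the part of list length in this order was not tested.

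Members of MEC were wide in RSC more often than in ACC, with overlapping intervals. They were wide in RSC in 103 of 192 cases (53.6%, 46.6 to 60.6), in LEC in 94 (49.0%, 41.98 to 55.98) and in ACC in 82 (42.7%, 35.9 to 49.8). Excluded regions elsewhere held a further 37 MEC members in RSC (19.3%, 14.3 to 25.4), 17 in LEC (8.85%, 5.60 to 13.7) and 36 in ACC (18.8%, 13.9 to 24.9). For narrower MEC regions the shares were 13.0% in RSC, 11.9% in LEC and 15.6% in ACC. Those for LEC and ACC lie inside the intervals of the wide regions. All excluded partners of the wide MEC members were at least 10 kb wide. Their median width was 36950 bp in RSC, 28900 bp in LEC and 40675 bp in ACC. MEC had few wide regions at the members of the other lists, 82 of the 779 in ACC (10.5%), 103 of the 591 in RSC (17.4%) and 93 of the 521 in LEC (17.9%). In MEC most of those members met narrower regions, 505 in ACC (64.8%), 423 in RSC (71.6%) and 326 in LEC (62.6%).

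**Figure D2:**
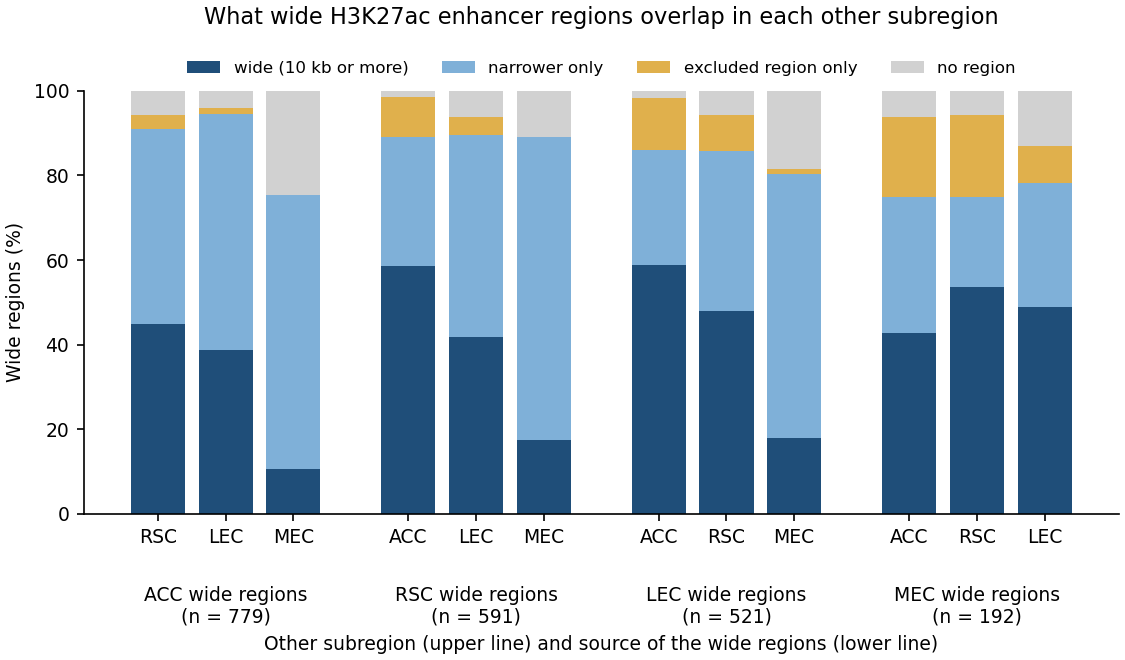
Share of wide H3K27ac enhancer regions (y axis, %) by what they overlapped in each other subregion. Every bar adds to 100% of the wide regions of the list named on the lower line, and its colours stand for a wide region, narrower regions only, an excluded region only or no region. The darkest segments are short in the MEC bars, at 10.5% of ACC, 17.4% of RSC and 17.9% of LEC wide regions, where the segments for narrower regions reach 64.8%, 71.6% and 62.6%.

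Per base, the gap between wide and narrower regions was smaller than by counts, and for MEC regions it was nearly absent in the coverage by RSC and ACC. H3K27ac enhancer regions of RSC covered 68.0% of the bases of ACC wide regions and 53.0% of ACC narrower ones. LEC covered 67.8% of wide and 51.1% of narrower bases in ACC. ACC covered 75.6% of wide and 63.6% of narrower bases in RSC, and 74.2% and 63.1% in LEC. LEC covered 64.7% and 49.5% in RSC, and RSC 67.8% and 50.4% in LEC. In the coverage by MEC a large gap remained. MEC covered 34.5% of wide and 18.7% of narrower bases in ACC, 46.8% and 24.6% in RSC, and 42.1% and 21.0% in LEC. Of the MEC bases, RSC covered 63.0% in wide and 63.1% in narrower regions. ACC covered 55.6% of wide and 56.9% of narrower bases in MEC, and LEC 59.4% and 52.1%.

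Where the partner was narrower, the wide region was often represented by several separate pieces. Among ACC members with narrower partners alone, RSC had 2 or more pieces at 198 of 360 (55.0%) and LEC at 237 of 434 (54.6%). Among narrower ACC regions with narrower partners it was 2.20% in RSC and 2.17% in LEC, and these have less room for a second piece. ACC had 2 or more at 113 of 181 such RSC members (62.4%) and at 81 of 141 LEC members (57.4%), against 1.79% and 1.68% of the narrower regions of these lists. MEC had them at 39.8% of such members in ACC, 46.1% in RSC and 47.2% in LEC, against 2.51%, 2.51% and 2.22% of narrower regions. The widest piece had a median of 3800 bp in MEC at ACC members and of 6600 bp in ACC at RSC members. Together the pieces left gaps, since RSC covered 55.0% of the bases of the 360 ACC members and MEC 37.7% of those of the 505 at which it was narrower.

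The member with the most pieces elsewhere was a 31.65 kb RSC region at chr2:52487351-52519000. ACC had 8 separate enhancer regions over it, none wider than 2525 bp, that covered 44.5% of its bases. LEC had 3 regions covering 28.4% and MEC 2 covering 15.8%. It held 7 RSC H3K4me2 regions covering 62.3%, a number that no RSC member exceeded and 1 other reached, against 6 covering 38.3% in the ACC list. In the other lists the most pieces, at the widest region with that many, were 5 in RSC over the ACC region chr14:31051526-31077175 (25.65 kb), 4 in MEC over the LEC region chr18:25770676-25807650 (36.975 kb), and 4 in ACC over the MEC region chr12:44920776-44935400 (14.625 kb).

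Merging the wide regions of the 4 lists wherever they overlapped gave 1237 separate spans covering 18.5 Mb. Of these, 700 (56.6%, 53.8 to 59.3) held a wide region of 1 subregion, 304 (24.6%) of 2 subregions, 179 (14.5%) of 3 subregions and 54 (4.37%, 3.36 to 5.65) of all 4. Spans wide in 1 list alone numbered 317 for ACC, 176 for RSC, 145 for LEC and 62 for MEC. The most frequent combinations were ACC, RSC and LEC with 139 spans, ACC and RSC with 135, and ACC and LEC with 100. Wide in RSC and LEC alone were 35, in RSC and MEC 15, in LEC and MEC 14, and in ACC and MEC 5, while 17 were wide in RSC, LEC and MEC without ACC. The median span was 11.9 kb with 1 subregion, 14.3 kb with 2 subregions, 17.3 kb with 3 subregions and 19.25 kb with 4, and merging itself widens a span with each list it joins.

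Over the 4 lists together, regions without an enhancer region elsewhere became rarer with width up to 20 kb, and the limit of 10 kb did not stand out. They made up 32.8% (32.3 to 33.3) of regions under 2 kb and 14.0% of those from 2 to 4 kb. The share was 4.49% from 6 to 8 kb, 3.13% (2.37 to 4.13) from 8 to 10 kb and 2.02% (1.30 to 3.13) from 10 to 12.5 kb. Above that it was 0.973% from 12.5 to 15 kb, 0.971% from 15 to 20 kb and 1.86% (0.726 to 4.69) from 20 kb up. All 4 such regions of at least 20 kb were MEC regions, out of 17 there (23.5%, 9.56 to 47.3). A wide region elsewhere overlapped 29.3% of regions of 8 to 10 kb and 56.7% of those of 10 to 12.5 kb, and 84.2% of those of at least 20 kb.

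**Figure D3:**
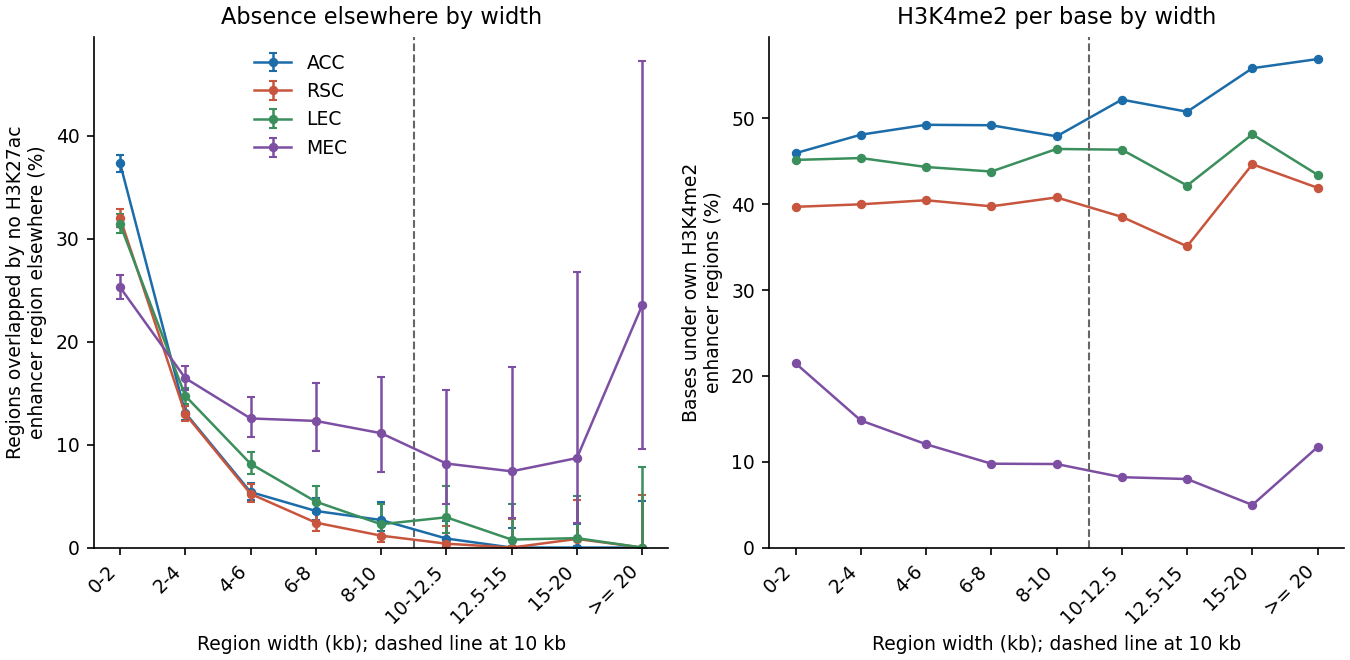
Left, share of H3K27ac enhancer regions that no enhancer region elsewhere overlapped (y axis, %, with Wilson 95% intervals) by width (x axis, kb). Right, share of their bases under H3K4me2 enhancer regions of the same subregion (y axis, %). Lines stand for subregions and the dashed line for 10 kb. On the left all 4 lines fall up to 10 kb. On the right ACC, RSC and LEC stay between 35.1% and 56.9% while MEC goes from 21.5% under 2 kb to 8.20% at 10 to 12.5 kb.

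Spans wide in all 4 subregions were ranked by the narrowest of their 4 widest regions, not by span length. That the top spans were long blocks in each subregion follows from this ranking. The first, chr8:67111851-67148700, equals the widest MEC region of 36850 bp. The widest region there was 27800 bp in ACC, 27800 bp in RSC and 28675 bp in LEC, and enhancer regions covered 87.7%, 85.1% and 93.5% of the span in these lists. Another MEC enhancer region began 25 bp beyond its end. ACC H3K4me2 regions covered 36.4% of this span, RSC ones 36.6%, LEC ones 20.6% and MEC ones 7.94%.

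The second span, chr6:135837601-135870875, was 33.3 kb long and a single block in 3 lists. Its region was 33075 bp in ACC, 33075 bp in RSC and 32200 bp in LEC, while MEC had 2 regions with the wider at 22225 bp. H3K4me2 was spread over most of it, with 85.0% of bases in ACC, 68.3% in RSC and 54.0% in LEC, against 6.69% in MEC. The next span of the ranking lay on the same chromosome at chr6:135760451-135791475 and was 31.0 kb long. Its widest region was 28875 bp in ACC, 30650 bp in RSC, 21125 bp in LEC and 26225 bp in MEC. H3K4me2 covered 33.1%, 19.7%, 20.4% and 1.69% of it in the same order.

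**Figure D4:**
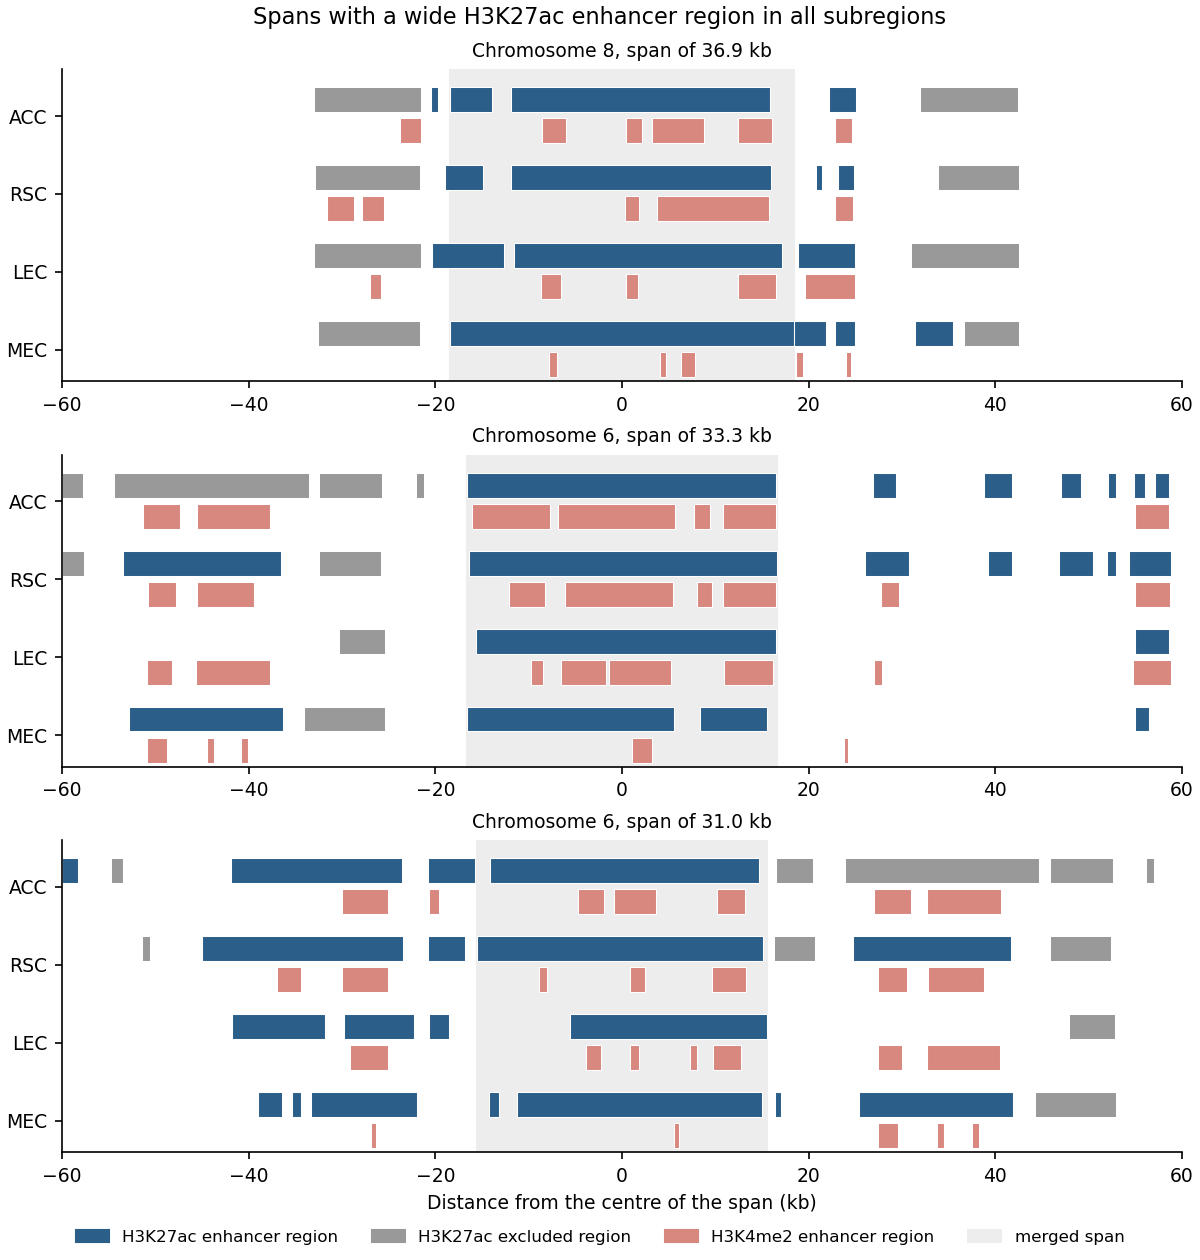
Regions around the 3 spans described, by distance from the centre of each span (x axis, kb), with the subregions below each other. Blue bars are H3K27ac enhancer regions, grey bars H3K27ac excluded regions, red bars H3K4me2 enhancer regions, and the shaded band is the merged span. The chromosome 8 span is 1 bar in MEC and 2 in each other subregion, and the upper chromosome 6 span is 1 bar in ACC, RSC and LEC and 2 in MEC. Excluded regions lie beside the bands, and red bars cover less of each band in MEC than in the other subregions.

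The widest regions of each list differed in how they appeared elsewhere. The widest in ACC, chr14:64985301-65040550 (55.25 kb), met an excluded region of 125900 bp in RSC and one of 78100 bp in MEC. LEC had 2 enhancer regions there, the wider of 28100 bp, covering 92.3% of it. It held 8 ACC H3K4me2 regions over 47.2% of its bases, the most of any ACC member. The next in ACC were chr4:119618876-119665175 (46.3 kb) and chr8:122799176-122844375 (45.2 kb). Both were wide in RSC and LEC and narrower in MEC, whose regions covered 48.7% of the one on chromosome 4 and 10.2% of the one on chromosome 8.

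In RSC the widest region was chr2:166942826-166995175 (52.35 kb). LEC had a wide region of 39250 bp within it, itself the second widest of LEC, and MEC one of 11850 bp. ACC had no H3K27ac region there, in the enhancer or the full list. ACC H3K4me2 regions nevertheless covered 75.2% of its bases, the most of the 4 lists, with 51.1% under RSC, 49.1% under LEC and 4.63% under MEC regions. The next RSC region, chr9:24988426-25038125 (49.7 kb), was wide in all 4 lists and had little H3K4me2 in any, with 10.6% of bases under RSC, 9.05% under ACC, 6.99% under LEC and 2.31% under MEC regions of that mark. MEC covered 95.1% of it with H3K27ac enhancer regions, more than ACC (69.8%) or LEC (65.1%). The next, chr5:112920001-112966950 (46.95 kb), was wide in ACC and LEC and in 4 narrower pieces in MEC.

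In LEC the widest region was chr9:122492076-122545325 (53.25 kb), with 6 H3K4me2 regions of its own list covering 64.2%. RSC had 7 enhancer regions over it with the widest at 10175 bp. In ACC an enhancer region of 37650 bp and an excluded region of 34075 bp lay there, and MEC covered 10.5% of it. After the chromosome 2 region named above came chr13:59165926-59203075 (37.15 kb), which was a single region of nearly the same width in ACC (37425 bp) and RSC (37375 bp) and 5 regions in MEC.

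MEC's widest regions, after the chromosome 8 one, were chr2:44897626-44931350 (33.725 kb) and chr14:64780426-64813200 (32.775 kb). The region on chromosome 2 lay inside a 45250 bp enhancer region of RSC and met an excluded region of 87600 bp in ACC. The region on chromosome 14 met excluded regions of 67950 bp in ACC and 121725 bp in RSC and 4 enhancer regions in LEC. Of the 3 widest in MEC, 2 thus met excluded regions in ACC.

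Among wide regions with no enhancer region elsewhere, the widest of MEC lay in blocks that the other lists excluded. At chr6:36722876-36752375 (29.5 kb), ACC had an excluded region of 42425 bp, RSC one of 42225 bp and LEC one of 42150 bp. This region held 7 MEC H3K4me2 regions, the most of any MEC member, over 22.5% of its bases. At chr15:27705601-27734275 (28.675 kb) the excluded regions were 45825, 35800 and 36500 bp in the same order. The RSC regions chr16:95657126-95672950 (15.825 kb) and chr2:153246951-153258525 (11.575 kb) met excluded regions in ACC and LEC. The LEC region chr15:82746151-82761225 (15.075 kb) met one in ACC, and the ACC region chr16:35175726-35187900 (12.175 kb) one in LEC.

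Found in no H3K27ac list elsewhere were the LEC region chr7:6810101-6824325 (14.225 kb) and the ACC region chr1:94146576-94157075 (10.5 kb). The LEC region held 2 LEC H3K4me2 regions over 18.6% of its bases and no H3K4me2 region of any other list. The ACC region held no H3K4me2 region of any list, and another wide ACC region lay 32.05 kb away.

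H3K4me2 of the same subregion lay inside nearly all wide regions outside MEC. It was found in 727 of 779 in ACC (93.3%, 91.4 to 94.9, against 61.2% of the whole list) and in 531 of 591 in RSC (89.8%, 87.1 to 92.0, against 53.8%). In LEC it was 477 of 521 (91.6%, 88.9 to 93.6, against 60.6%), and in MEC 94 of 192 (49.0%, 41.98 to 55.98, against 34.2%). With an overlap of at least 1000 bp required, the MEC share fell to 26.0%. Those of ACC, RSC and LEC were then 92.7%, 88.5% and 90.2%. More than a single own H3K4me2 region was common. At least 2 lay in 57.6% of wide against 2.25% of narrower ACC regions and in 55.8% against 1.83% of RSC regions. It was 58.5% against 2.04% of LEC regions and 21.4% against 1.15% of MEC regions. At least 4 lay in 37 wide ACC, 25 RSC, 18 LEC and 2 MEC regions, and in none of the 81946 narrower regions.

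The density of H3K4me2 per base did not follow these counts. Own H3K4me2 regions covered 53.6% of wide and 47.9% of narrower bases in ACC. In RSC it was 39.96% and 40.03%, and in LEC 45.3% and 44.99%, differences of under 1 percentage point. In MEC it was lower in wide regions, with 8.24% of wide and 15.1% of narrower bases. Pooled over the lists, coverage was 40.8% under 2 kb, 41.0% from 8 to 10 kb, 42.3% from 10 to 12.5 kb and 45.6% from 20 kb up. In RSC, LEC and MEC the midpoint of a region fell in own H3K4me2 less often for wide than for narrower regions. The share was 40.6% (36.7 to 44.6) of wide against 46.6% (46.0 to 47.3) of narrower RSC regions. For LEC it was 48.2% (43.9 to 52.5) against 53.3% (52.6 to 54.0), and for MEC 10.4% (6.84 to 15.5) against 22.2% (21.5 to 23.1). The opposite held for ACC, at 59.2% (55.7 to 62.6) against 53.9% (53.3 to 54.5).

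The MEC H3K4me2 list stood apart from the others in form. Its regions had a median of 750 bp against 1500 to 1600 bp in the other 3 enhancer lists, it came from 1 library, and no gap in it was under 1025 bp, where the others had gaps down to 25 bp. Only 4 of its 14298 autosomal regions were at least 10 kb wide. The part of this in the low MEC values was not tested. H3K4me2 regions of the other lists were found in MEC wide regions more often than MEC ones, ACC ones in 80.2%, RSC ones in 80.2% and LEC ones in 74.0%. The same held in narrower MEC regions, with ACC ones in 57.3%, RSC ones in 58.1% and LEC ones in 51.1%, against 33.9% for MEC ones. The MEC H3K4me2 list in turn reached 51.6% of ACC, 52.3% of RSC and 54.3% of LEC wide regions, close to the 49.0% it reached in MEC. Of narrower regions it reached 20.5% in ACC, 21.8% in RSC and 24.0% in LEC, fewer than the 33.9% in MEC. Per base, ACC H3K4me2 covered 39.5% of MEC wide regions and MEC H3K4me2 5.56% of ACC wide regions.

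Across the length of wide regions, H3K4me2 formed a plateau with low edges. With each region divided into 20 equal parts, the outermost parts at both ends had 29.5% of bases under own H3K4me2 in ACC, against 57.3% in the central 50%. It was 17.4% against 42.4% in RSC, 22.9% against 48.9% in LEC and 2.02% against 9.24% in MEC. Narrower regions had a higher share at the edge in RSC, LEC and MEC, with 23.4% at the edge and 45.2% in the centre in RSC, 25.8% and 51.7% in LEC and 9.40% and 21.0% in MEC. In ACC narrower regions it was 28.8% and 52.6%. This depended on how much of the region counted as edge. Over the outer 2 parts at each end, LEC had 31.7% in wide and 29.4% in narrower regions, so that its order turned, and RSC had 25.2% and 26.5%. ACC had 38.4% and 32.7% there, and MEC 4.12% and 10.6%. H3K27ac enhancer regions of the other subregions fell off to the edges likewise, with 35.4% at the edge and 60.9% in the centre of ACC wide regions and 40.2% and 66.8% in RSC ones.

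**Figure D5:**
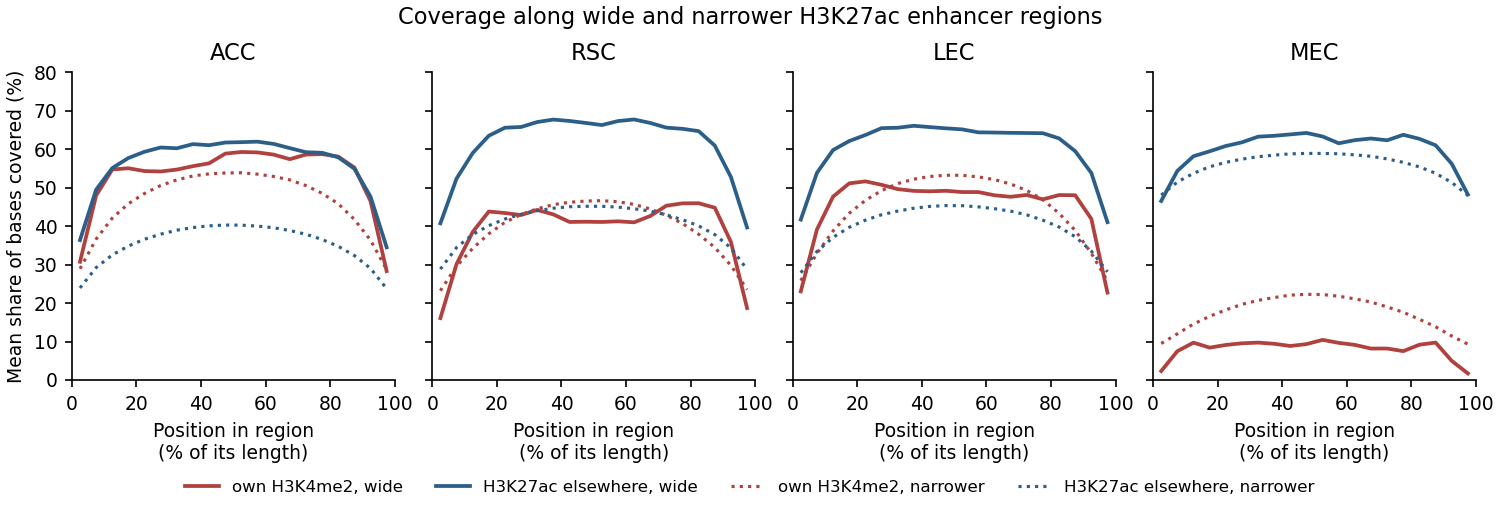
Mean share of bases covered (y axis, %) along the length of H3K27ac enhancer regions (x axis, % of the region's length), for wide regions (solid) and narrower ones (dotted) in each subregion. Red lines are H3K4me2 enhancer regions of the same subregion and blue lines H3K27ac enhancer regions of the other subregions, averaged over them. Solid lines are flat in the centre and fall at both ends. In RSC and LEC the solid red line runs below the dotted one in the centre (42.4% against 45.2% and 48.9% against 51.7%), and in MEC it does so along the whole length.

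Own H3K4me2 led the other lists more often at wide regions that were narrower elsewhere. The ACC H3K4me2 list covered more bases than each other list in 245 of 314 ACC members that were narrower elsewhere (78.0%, 73.1 to 82.3) and in 288 of 462 that were wide elsewhere (62.3%, 57.8 to 66.6). In LEC it was 57 of 136 (41.9%, 34.0 to 50.3) against 70 of 376 (18.6%, 15.01 to 22.9), and in RSC 62 of 174 (35.6%, 28.9 to 43.0) against 102 of 415 (24.6%, 20.7 to 28.9). These intervals did not overlap in ACC and LEC and just overlapped in RSC. The MEC list led in 2 of 44 and 2 of 130. At LEC members that were narrower elsewhere, LEC H3K4me2 covered 41.9% of bases, ACC 37.0% and RSC 29.9%. At those wide elsewhere, LEC covered 46.7%, ACC 56.6% and RSC 42.1%. The lists differ in total length, so the lead of ACC over other lists cannot be told apart from its larger list.

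No H3K4me2 enhancer region of any subregion lay in 70 wide regions (3.36%, 2.67 to 4.22), against 25.7% (25.4 to 26.0) of narrower regions. They were 18 ACC, 21 RSC, 12 LEC and 19 MEC regions, and in MEC they made up 9.90% (6.43 to 14.9) of the wide regions. In the full H3K4me2 lists 68 of the 70 also had none. A further 184 of the 2083 wide regions held H3K4me2 regions of other subregions but none of their own, against 16090 of the 81946 narrower regions. In MEC it was 79 of 192 wide and 4328 of 10517 narrower regions, about the same share.

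Some of these H3K4me2-free blocks were shared by several subregions. The widest LEC one, chr2:7940826-7956275 (15.45 kb), was wide in all 4 lists, with regions of 12300 bp in ACC, 12125 bp in RSC and 17875 bp in MEC. The widest ACC one, chr9:119941151-119956700 (15.55 kb), was wide in RSC (13475 bp) and LEC (14000 bp) and in no H3K27ac list of MEC. The widest RSC one, chr9:113092276-113111500 (19.225 kb), was narrower in the other 3 lists. The widest of MEC, chr18:16264951-16287375 (22.425 kb), had no region of either mark in any other list, and the nearest excluded region of MEC was 539 kb away.

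Wide regions lay nearer to excluded H3K27ac regions than narrower ones did. Measured from edge to edge within a list, the median distance was 18.2 kb for wide and 31.15 kb for narrower regions in ACC, 24.1 and 37.2 kb in RSC, 20.98 and 31.15 kb in LEC, and 40.6 and 50.9 kb in MEC. Within 5 kb of an excluded region were 22.2% (19.4 to 25.3) of wide and 14.5% (14.1 to 14.9) of narrower regions in ACC. The shares for RSC were 20.8% (17.7 to 24.3) of wide against 12.7% (12.3 to 13.2) of narrower regions. For LEC they were 24.2% (20.7 to 28.0) against 13.7% (13.2 to 14.1), and for MEC, where the intervals just overlapped, 14.6% (10.3 to 20.3) against 9.77% (9.22 to 10.4). A wide region reaches further from its midpoint, so some of this follows from its length. From the midpoint of the wide regions, the median over all 4 lists was 28.8 kb, against 21.9 kb from the edge. Narrower regions had a median of 34.6 kb from the edge, and their distance from the midpoint was not computed. The gap to the next enhancer region of the list was also shorter, with a median of 3.58 kb for wide and 11.7 kb for narrower regions.

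Wide regions lay close together. Another wide region of the same list was found within 100 kb of 380 in ACC (48.8%, 45.3 to 52.3, against 16.3% of the whole list) and of 261 in RSC (44.2%, 40.2 to 48.2, against 13.9%). In LEC it was 210 (40.3%, 36.2 to 44.6, against 13.2%) and in MEC 49 (25.5%, 19.9 to 32.1, against 8.3%). Lists with more wide regions have more neighbours to offer, so the order of the subregions was also looked at with the 250 widest regions of each list. The shares were then 34.4% for ACC, 31.2% for RSC, 30.0% for LEC and 28.0% for MEC.

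All 19 autosomes carried wide regions. Their share of the regions on a chromosome ran from 1.41% (0.968 to 2.04) on chromosome 19 to 3.15% (2.67 to 3.71) on chromosome 12. Chromosome 1 had the most, with 170, but it also had the most regions in all (6726, of which 2.53% were wide). Spans wide in all 4 subregions were most frequent on chromosome 13, with 8 of 76 spans. Chromosomes 4 (72 spans), 5 (70 spans) and 19 (17 spans) had none.

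Joined at gaps of up to 100 kb, the 1237 spans formed 804 chains, of which 228 held at least 2 spans and 100 at least 3. The longest chain, chr9:112986776-113544825, ran over 558 kb and held 15 spans with 35 wide regions, 6 from ACC, 12 from RSC, 10 from LEC and 7 from MEC. Of its spans, 4 were wide in all 4 subregions. ACC H3K27ac enhancer regions covered 32.1% of it, RSC ones 48.3%, LEC ones 47.1% and MEC ones 36.4%. No excluded region of any list lay in it. It held fewer H3K4me2 than H3K27ac enhancer regions, 14 against 36 of ACC, 11 against 31 of RSC, 13 against 38 of LEC and 3 against 36 of MEC.

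The next chains had fewer wide regions and differed in which subregions made them up. At chr14:64752101-65157150 (405 kb) were 20 wide regions in 9 spans, 5 from ACC, 2 from RSC, 7 from LEC and 6 from MEC. It contains the widest ACC region, and RSC enhancer regions covered 13.2% of it, ACC ones 40.2%, LEC ones 55.2% and MEC ones 43.8%. Excluded regions of every list lay in it, 6 of ACC, 5 of RSC, 4 of LEC and 4 of MEC. Among them were RSC ones of 125900 and 121725 bp, an ACC one of 67950 bp and a MEC one of 78100 bp. At chr3:84986151-85341075 (355 kb) were 18 wide regions in 8 spans, 6 from ACC, 8 from RSC, 3 from LEC and 1 from MEC. H3K27ac enhancer regions covered 56.9% of it in RSC and 47.4% in ACC, against 24.4% in LEC and 26.6% in MEC. MEC had 23 enhancer regions there, as many as RSC, but a single wide one.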

How the data were processed

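Per the labels, 23 chromatin libraries were made for 2 histone marks and input in 4 subregions. Bowtie 1.1.1, bedtools 2.19.0 and genome build mm9 are named per the submitters' processing notes. How peaks were called, at which threshold and how libraries were pooled was not given in the sources used here. In all, the authors deposited 17 region lists, in which the values used are chromosome, start and end in bp on a 25 bp grid. A list that repeated the MEC H3K27ac enhancer list was not used, which left 16. The lists hold no counts or signal, so depth is unknown.

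Width was end minus start, and autosomal H3K27ac enhancer regions of at least 10000 bp were the members. An overlap was at least 1 bp. Distances ran from edge to edge. Overlaps were computed with Python 3.11.15 and numpy 2.4.6, checked on simulated intervals, and equal to bedtools 2.31.1 in 32 of 32 comparisons. No test was made, since regions are not replicates. The members, the lists and the rule for named regions were chosen with earlier results of these data known. That rule took, per subregion, the 3 widest regions, the 2 widest with no enhancer region elsewhere, the one in most pieces elsewhere, the one with most own H3K4me2 regions, the widest with none, and regions next to the limit. It also took 3 spans wide in all 4 lists, the first when ranked by the narrowest of their 4 widest regions, and the 3 chains with most wide regions.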

Additional observations from a re-analysis of the deposited data

Results flagged for a closer look

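The share of bases under own H3K4me2 moved in opposite directions with width in ACC and MEC. Wide minus narrower regions gave 5.71 percentage points in ACC (53.6% of wide and 47.9% of narrower bases) and -6.86 in MEC (8.24% and 15.1%). The difference between the subregions was not tested, since each has 1 list per mark. RSC (-0.0673) and LEC (0.358) lay near 0. Beside the MEC value stand a median H3K4me2 region of 750 bp, 1 library and no gap under 1025 bp, and their part in it was not tested.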

How the results depend on the processing

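Values here pool the 4 lists. The reported ones were 2083 wide regions, 66.4% wide elsewhere, 32.1% narrower elsewhere only, 1.54% with no enhancer region elsewhere, 87.8% with own H3K4me2, 43.7% of bases under it, 21.9 kb to an excluded region and 43.2% with a wide neighbour within 100 kb. Of 72 values under 13 other settings, 40 moved beyond the counting interval of the reported value (for the number of regions, beyond 1.5 times). With a limit of 8 kb the number was 3615, narrower only 29.9%, none elsewhere 2.21%, own H3K4me2 85.6% and neighbours 49.2%. At 15 kb the number was 627, wide elsewhere 62.4%, narrower only 36.4%, own H3K4me2 93.8%, its bases 46.8%, the distance 15.95 kb and neighbours 29.8%. In another setting the 250 widest regions of each list (1000 in all) were counted as the wide ones. Wide elsewhere was then 60.6%, narrower only 36.7%, none elsewhere 2.70%, own H3K4me2 84.1%, its bases 40.4% and neighbours 30.9%. MEC then had 43.2% wide elsewhere, against 66.0% for ACC, 66.4% for RSC and 66.8% for LEC, and it had the largest share narrower only (47.2%) where by the 10 kb limit it had the smallest (22.9%). Joining regions within 12.5 kb gave 11645 wide regions, 77.4% wide elsewhere, 20.1% narrower only, 2.46% none elsewhere, 22.3% of bases, 19.0 kb and 56.1% with neighbours. Requiring overlap of 50% of the wide region gave 25.2% narrower only, 9.60% none elsewhere and 42.01% with own H3K4me2, and an overlap of 1000 bp gave 84.7% with own H3K4me2. With full lists elsewhere, 72.3% were wide elsewhere, 27.2% narrower only and 0.432% in none. The distance from the midpoint was 28.8 kb, and neighbours within 50 kb and 500 kb were 33.6% and 60.9%. Leaving out the MEC lists, chosen after seeing the data, gave 64.3% wide elsewhere, 3.33% none elsewhere, 91.8% with own H3K4me2 and 47.1% of bases. Joining at 1 kb and keeping the sex chromosomes moved none of the 8 results. The causes were not tested. No paired analysis was possible because the lists hold no values per library, and for the same reason no library could be left out.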

Other observations

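Some spans that were wide in 2 or 3 subregions met no H3K27ac region, enhancer or excluded, in another. They numbered 4 of 81 (4.94%) for ACC, where 24.6% of all regions of the other lists and 2.30% of their wide regions met none. It was 10 of 126 (7.94%, against 36.6% of all and 5.76% of wide regions) for RSC and 19 of 171 (11.1%, against 40.8% and 6.02%) for LEC. For MEC, which has the shortest list, it was 57 of 409 (13.9%, against 73.5% and 18.6%). Wide regions of a single subregion are among the regions compared, and a span is longer than most regions. All 4 spans without H3K27ac in ACC held ACC H3K4me2 regions, which covered 68.4% of their bases. In RSC 8 of 10 held RSC H3K4me2 (27.6% of bases), in LEC 8 of 19 (17.2%) and in MEC 19 of 57 (2.22%). Among all wide regions of the other lists, ACC H3K4me2 lay in 80.2 to 91.4% per list (39.5 to 51.6% of bases). For RSC H3K4me2 it was 80.2 to 90.0% (37.3 to 38.9% of bases). LEC H3K4me2 lay in 74.0 to 90.0% of them (32.1 to 38.3% of bases) and MEC H3K4me2 in 51.6 to 54.3% (5.56 to 6.43%). The ACC spans include the widest RSC region, chr2:166942826-166995175, and 2 others that were wide in all of RSC, LEC and MEC, chr9:113530751-113544825 (14.1 kb) and chr10:13924526-13939175 (14.65 kb). ACC H3K4me2 covered 31.8% of the span on chromosome 9 and 55.97% of that on chromosome 10. The only span wide in ACC, LEC and MEC without H3K27ac in RSC was chr4:82176376-82189800 (13.4 kb), where RSC H3K4me2 covered 80.3% of bases.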
